A study of Rattus norvegicus with 24 samples.

Results

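The genes described here encode the machinery that brings nuclear-encoded proteins into mitochondria. They were taken from the expression table by symbol, as every symbol that starts with Timm or Tomm followed by a digit, plus Pam16, Grpel1, Pmpca, Pmpcb, Samm50, Mtx1, Mtx2, Chchd4 and Gfer. This gave 30 genes among the 13458 symbols of the table, and the row with the highest mean was kept where a symbol had several (Timm9, with 3 rows). No measured value entered the choice of symbols.

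The samples are tibialis anterior muscles of 12 aged male Fischer 344 rats (23 ± 1 months), both limbs of each animal, profiled by sequencing of mRNA-enriched directional libraries, 24 in all. In the atrophy group the common peroneal nerve of the left limb was silenced with tetrodotoxin (TTX, a sodium channel blocker delivered by an osmotic pump to a cuff around the nerve) for 6 to 7 days, in the recovery group (TTX+Recovery) the block was followed by 9 days of recovery, and in the repeated atrophy group (Repeated TTX) a further block of 5 to 6 days came after that recovery, with 3 left limbs in each group. Control was the untreated right limb of those 9 animals, so that treated and control limbs share animals and a right limb of a TTX-treated rat is a contralateral and not an untouched muscle. A sham group of 3 operated animals gave 3 left and 3 right limbs, 1 animal for each time point. Only males of 1 inbred strain were used, and the levels are of whole muscle, in which fewer cells of a type and less RNA per cell cannot be told apart.

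Nearly all mitochondrial proteins are made in the cytosol and pass the outer membrane through the TOM complex, whose receptors Tomm20, Tomm22 and Tomm70 bind the precursors and whose channel is Tomm40. From there the routes part: the SAM complex inserts beta-barrel proteins into the outer membrane, the small TIM chaperones carry hydrophobic precursors across the intermembrane space to the TIM22 complex, the Chchd4 and Gfer relay forms disulfides in intermembrane space proteins, and the TIM23 channel with its motor pulls presequence proteins into the matrix, where the processing peptidase Pmpca and Pmpcb removes the presequence. Contracting muscle fibres depend on their mitochondria for ATP, and loss of use is known to go along with loss of mitochondrial content.

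Values are CPM (counts per 1000000, as deposited by the authors), compared as log2(CPM + 1) in limma. A gene was called where it changed by 1.2-fold or more with a p of 0.05 or less after Benjamini-Hochberg adjustment over all rows tested. All 30 genes entered the tests of the TTX animals, although Timm8a2 never exceeded 0.374 CPM and was at 0 in 7 of 9 control limbs. The depth inferred from the smallest steps of the values ranged from 18.9 to 30.9 M reads per limb (M, 1000000 reads). The 10 most abundant rows took 24.3 to 32.7% of the values in control limbs but 13.0 to 25.6% in atrophy limbs and 15.6 to 19.2% in repeated atrophy limbs, and the median log2 fold change over all rows against control was 0.22 for atrophy limbs, 0.02 for recovery limbs and 0.20 for repeated atrophy limbs. The same tests were therefore also run after TMM rescaling (trimmed mean of M values), which brings these medians to about 0, and changes are given on both scales. The tissue label was checked with 7 muscle fibre markers, whose summed level was 154165 to 216154 CPM in control limbs, 74677 to 164140 CPM in atrophy limbs, 177307 to 192269 CPM in recovery limbs and 96887 to 132135 CPM in repeated atrophy limbs. None of the 7 was called in any treated group.

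Per kilobase of transcript, the order of the mean levels in the 9 control limbs was led by Timm8b (249.7 CPM per kb), a small TIM chaperone, and the TIM23 channel subunits Timm23 (176 CPM per kb) and Timm17a (171 CPM per kb). Tomm7 (135 CPM per kb), a small subunit that modulates TOM assembly, the receptor Tomm20 (129 CPM per kb) and Samm50 (117 CPM per kb), the core of SAM, came next. The paralogs Timm17b (9.75 CPM per kb), Timm10b (7.68 CPM per kb) and Tomm40l (5.65 CPM per kb) stood near the bottom with Mtx1 (5.35 CPM per kb), and Timm8a2 was lowest (0.0463 CPM per kb). These levels rest on 1 row per gene, and reads shared between near-identical paralogs could be split by the counting in ways that the values do not show.

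The promoter windows of 5 of the genes are shown because the receptors and Tomm7 were higher on the deposited values after both periods of disuse, and the paralogs Timm17a and Timm17b went in opposite directions after the repeated period. None of the receptors nor Tomm7 passed after the TMM rescaling, or after the initial period with the animal as a block. The windows run from 250 bases before to 50 bases after the gene start and come from RefSeq, build GRCr8, which is not the build of the expression table (rn7). Capitals mark the letters CCGGAAG, a core bound by ETS factors such as GABPA, or GCGCATGC, a core bound by NRF1, on either strand, so that a palindromic site is read in both directions and its copies overlap.
Tomm20 (chr19:71832371-71832670, minus strand): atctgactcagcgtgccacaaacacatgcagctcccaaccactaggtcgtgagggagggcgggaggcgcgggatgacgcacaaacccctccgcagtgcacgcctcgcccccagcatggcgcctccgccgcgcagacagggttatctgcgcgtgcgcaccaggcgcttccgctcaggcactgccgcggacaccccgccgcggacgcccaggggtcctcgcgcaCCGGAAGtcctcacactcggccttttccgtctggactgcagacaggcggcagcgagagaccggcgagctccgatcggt
Tomm22 (chr7:113107056-113107355, plus strand): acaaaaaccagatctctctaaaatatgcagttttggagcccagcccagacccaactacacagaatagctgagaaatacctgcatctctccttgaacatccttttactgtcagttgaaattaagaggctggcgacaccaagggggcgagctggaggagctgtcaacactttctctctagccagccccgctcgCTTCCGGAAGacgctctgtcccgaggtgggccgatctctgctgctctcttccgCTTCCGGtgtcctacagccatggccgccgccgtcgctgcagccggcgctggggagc
Tomm7 (chr4:12197253-12197552, plus strand): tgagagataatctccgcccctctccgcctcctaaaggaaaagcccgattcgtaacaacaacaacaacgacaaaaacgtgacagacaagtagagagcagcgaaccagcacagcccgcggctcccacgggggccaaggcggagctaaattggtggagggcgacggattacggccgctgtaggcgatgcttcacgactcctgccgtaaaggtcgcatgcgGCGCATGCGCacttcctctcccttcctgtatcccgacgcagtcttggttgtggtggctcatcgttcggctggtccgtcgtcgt
Timm17a (chr13:49294355-49294654, minus strand): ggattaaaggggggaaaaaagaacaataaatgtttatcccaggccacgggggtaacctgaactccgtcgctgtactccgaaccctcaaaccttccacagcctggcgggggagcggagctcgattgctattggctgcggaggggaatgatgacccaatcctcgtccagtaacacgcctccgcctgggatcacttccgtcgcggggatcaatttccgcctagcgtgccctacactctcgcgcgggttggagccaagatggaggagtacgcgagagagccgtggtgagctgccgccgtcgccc
Timm17b (chrX:17275291-17275590, minus strand): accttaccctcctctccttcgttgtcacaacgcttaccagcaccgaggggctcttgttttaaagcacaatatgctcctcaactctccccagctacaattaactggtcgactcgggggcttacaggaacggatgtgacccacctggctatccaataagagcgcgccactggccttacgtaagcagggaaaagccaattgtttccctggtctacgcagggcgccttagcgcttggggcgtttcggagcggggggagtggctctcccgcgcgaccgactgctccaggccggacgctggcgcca
Of the 30 symbols, 28 had a window. The ETS core was present in 12 of 28 (42.9%), against 8.75% of all 33469 windows of this length. Those windows were not limited to genes in the expression table. The window of the receptor Tomm70 also held the ETS core and is not printed. The NRF1 core was present in 4 of 28 (14.3%, in Chchd4, Gfer, Grpel1 and Tomm7), against 2.47% of all windows, and the YY1 core AAGATGGC in 1 of 28 (3.57%, in Tomm40l), against 3.17%. Of the genes with a window that were higher as deposited, 5 of 11 held the ETS core for atrophy, 2 of 4 for recovery and 8 of 13 for repeated atrophy, and of those that were lower, 0 of 1 did for recovery and 0 of 3 for repeated atrophy. After TMM rescaling 1 of 1 higher and 0 of 1 lower genes held it for atrophy, 2 of 4 and 0 of 1 for recovery, and 1 of 2 and 1 of 5 for repeated atrophy. A match is a run of letters and not a bound site. The Timm17a and Timm17b windows held none of the 3 cores.

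After the initial period of atrophy, 12 of the 30 genes (40.0%) were higher than control and 0 were lower, where 20.3% of all rows tested were higher and 2.33% were lower. The median log2 fold change of the 30 genes was 0.37, against 0.22 for all rows. The genes that rose were the receptors Tomm20, Tomm22 and Tomm70, the TOM subunit Tomm7, the cytosolic cochaperone Tomm34, the oxidoreductase Chchd4, the chaperones Timm9, Timm10, Timm10b and Timm13, the TIM22 channel Timm22 and Pam16, which regulates the import motor. On the rescaled values only 2 genes were higher (Timm10b and Tomm34, where 4.53% of rows were) and 2 were lower (Timm17a and Timm29, where 5.15% of rows were), and 7 of the 30 genes changed sign under at least 1 of the 3 rescalings (none of them among the 12).

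The receptor Tomm20 was at 284, 178 and 182 CPM in the atrophy limbs, and at 96.2 to 186 CPM, median 117, in the control limbs. Only atrophy limb 1 was above every control limb, and the log2 fold change was 0.75 ± 0.19 (SE, adjusted p = 0.0114, limma) as deposited and 0.38 ± 0.18 after rescaling (adjusted p = 0.199). Tomm7 was at 121.5, 64.7 and 80.5 CPM against 36.9 to 80.0 CPM in control, so that limb 2 lay inside that range and limb 3 just above it (log2 fold change 0.78 ± 0.21, adjusted p = 0.015, and 0.41 ± 0.18, adjusted p = 0.15, after rescaling).

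Timm10b (rn7 chr1:159980525-159983372), which joins the small chaperones at the TIM22 complex, was at 11.7, 8.34 and 15.5 CPM, above each of the 9 control limbs (3.91 to 7.05 CPM). Its log2 fold change was 1.05 ± 0.22 (adjusted p = 0.0075, limma), the largest of the 30 genes in this comparison, and 0.71 ± 0.17 after rescaling (adjusted p = 0.019). Tomm34 (rn7 chr3:152729345-152746192), a cytosolic partner of Hsp70 and Hsp90, was at 116, 58.4 and 92.7 CPM against 39.0 to 60.5 CPM, so that atrophy limb 2 lay within the control range. It rose by a log2 fold change of 0.81 ± 0.19 (adjusted p = 0.0103), and of 0.44 ± 0.13 after rescaling (adjusted p = 0.041).

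Timm9, which forms a hexamer with Timm10 that escorts carrier proteins, was at 18.5, 15.8 and 19.9 CPM and above all control limbs (7.63 to 12.8 CPM), with a log2 fold change of 0.70 ± 0.16 (adjusted p = 0.0090, limma) that was 0.35 ± 0.16 after rescaling (adjusted p = 0.19). The other 7 genes that rose had log2 fold changes of 0.48 to 0.65 as deposited, and none of them passed after rescaling. Timm17a (rn7 chr13:46731117-46742605), one of the TIM17 paralogs of the TIM23 channel, was at 137.8, 137.9 and 128.5 CPM against 130.7 to 178.2 CPM. It did not pass as deposited (log2 fold change -0.18 ± 0.12, adjusted p = 0.299) and was lower after rescaling (-0.55 ± 0.17, adjusted p = 0.049), as was Timm29, a subunit of TIM22 (-0.04 ± 0.10, adjusted p = 0.816, as deposited and -0.41 ± 0.13, adjusted p = 0.0467, after rescaling). On the rescaled values both genes were also at -0.38 in the sham left limbs, without passing.

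Without atrophy limb 1, 0 of the 30 genes passed on either scale, where 4 of all 14015 rows did as deposited and 1 after rescaling, and without atrophy limb 3, 0 of the 30 and 0 of all 13994 rows passed on either scale. As deposited, all 12 log2 fold changes stayed above 0, at 0.33 to 1.03 without limb 1 and 0.30 to 0.85 without limb 3, against 0.48 to 1.05 with all limbs. Without atrophy limb 2, 13 genes passed as deposited (31.5% of all rows did) and 6 after rescaling (2 higher and 4 lower, with 15.8% of all rows). Over the 30 genes, limb 2 differed least from the right limb of its own animal, with a median left minus right difference of -0.06 on the log2 scale, against 0.38 and 0.26 for limbs 1 and 3. The satellite cell markers had a summed level of 7.38 to 86.1 CPM in the atrophy limbs against 1.98 to 11.7 CPM in control, with 1 of 2 higher. They were at 3.42 to 68.7 CPM in sham left and 1.45 to 52.2 CPM in sham right limbs, and their part in the changes of the import genes was not tested. With the animal as a block (replicate block), 0 genes passed and 0% of all rows did, with 9 of the 30 at an unadjusted p under 0.05, where 2678 of all 14031 rows were. All 12 log2 fold changes stayed above 0 in that fit, at 0.25 to 0.75, but some were much smaller, such as those of Tomm70 (0.25 ± 0.21, adjusted p = 0.522, limma), Tomm22 (0.29 ± 0.17, adjusted p = 0.358) and Tomm7 (0.41 ± 0.22, adjusted p = 0.322). The median of the 30 genes was 0.20, against 0.17 for all rows.

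**Figure D1:**
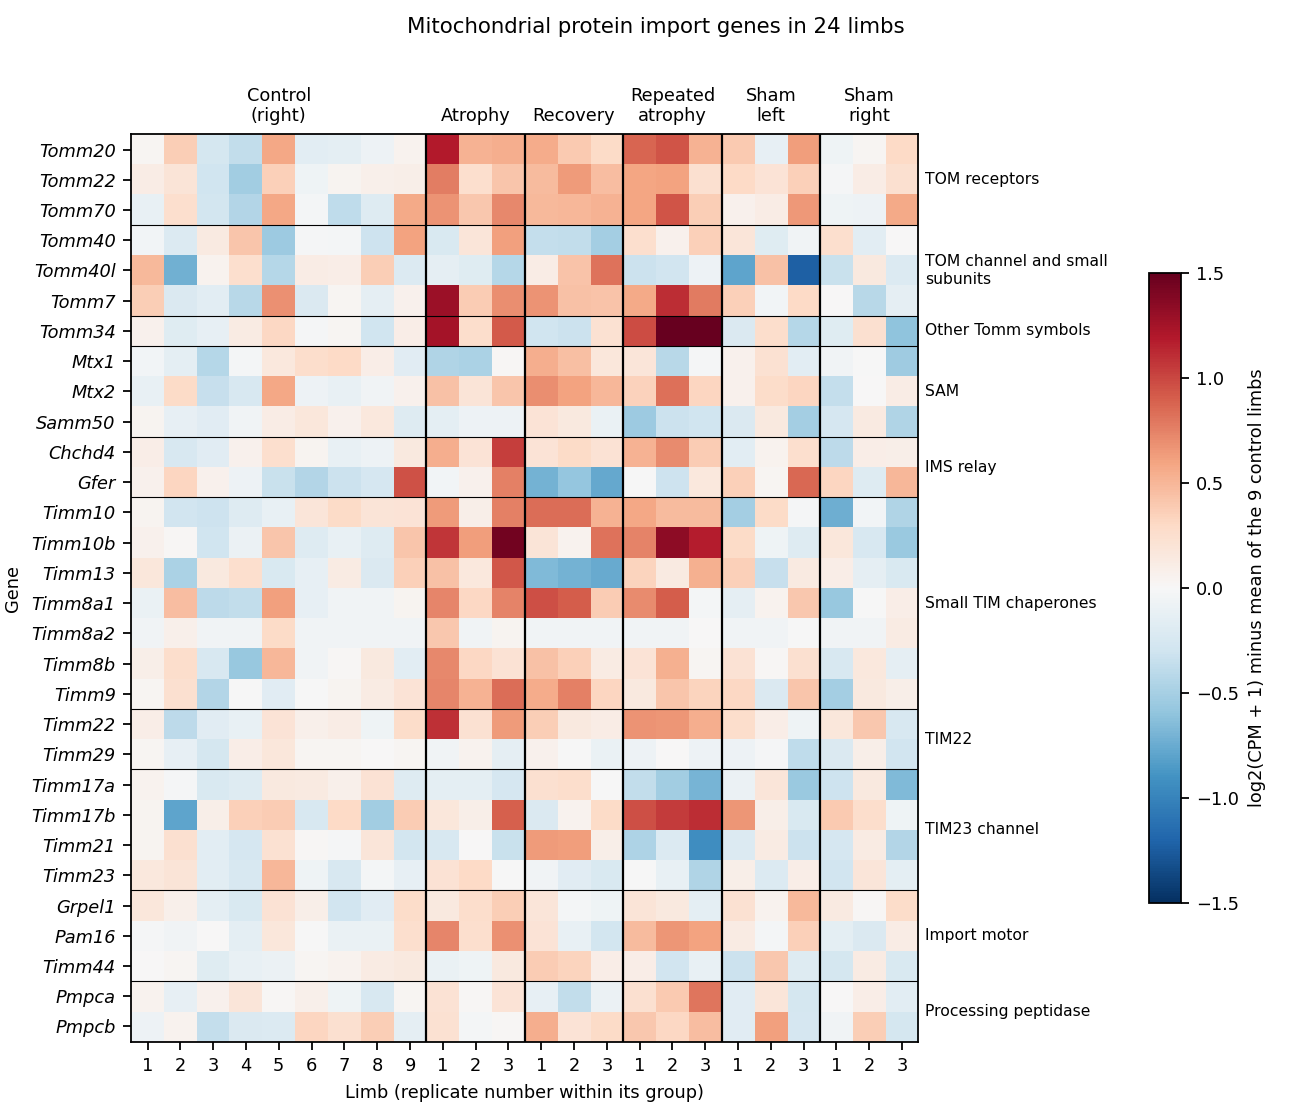
Each row is 1 import gene, grouped by role, and each column 1 of 24 limbs; the colour is log2(CPM + 1) minus the mean of the 9 control limbs, on CPM as deposited, with limbs numbered within their group. Tomm34, Tomm20, Tomm7 and Timm10b are red in most atrophy and repeated atrophy limbs, Timm13 and Gfer are blue in the 3 recovery limbs, and Timm17a is blue where Timm17b is red in the repeated atrophy limbs.

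After recovery, 4 of the 30 genes (13.3%) were higher than control (4.40% of all rows were) and 1 (3.33%) was lower (3.33% of all rows were). After rescaling the counts were again 4 and 1, against 6.14% and 5.92% of all rows, and they were the same 5 genes. After quantile normalization, another of the rescalings, 7 were higher and 2 lower, against 5.80% and 6.20% of all rows, with Tomm22, Tomm7 and Tomm70 added to the rises and Gfer to the falls. Timm10, Timm8a1 and Timm9, all small TIM chaperones, and the metaxin Mtx2 of the SAM complex rose, and the chaperone Timm13 fell. The median log2 fold change of the 30 genes was 0.25, against 0.02 for all rows.

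Timm10 was at 50.4, 50.5 and 40.2 CPM in the recovery limbs, above all control limbs (22.2 to 34.2 CPM, median 28.5). Its log2 fold change was 0.73 ± 0.16 (adjusted p = 0.013, limma), and 0.72 ± 0.17 after rescaling. Timm8a1, the partner of Timm13 in a hexamer that guides inner membrane precursors such as Timm23, was at 53.8, 51.6 and 35.4 CPM against 20.3 to 41.9 CPM, with the third limb inside the control range (log2 fold change 0.75 ± 0.22, adjusted p = 0.047, limma). Mtx2 was at 48.9, 45.9 and 42.5 CPM against 23.3 to 45.1 CPM, again with the third limb inside (0.60 ± 0.17, adjusted p = 0.038), and Timm9 was at 16.2, 18.8 and 13.6 CPM against 7.63 to 12.8 CPM (0.54 ± 0.16, adjusted p = 0.043). When the 3 rows of Timm9 were summed, its fold change was similar (0.54) and the adjusted p was 0.085.

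Timm13 (rn7 chr7:8809069-8810173) was at 37.3, 35.9 and 34.6 CPM, below all control limbs (42.3 to 76.5 CPM, median 64.7). The log2 fold change was -0.71 ± 0.18 (adjusted p = 0.021, limma), and -0.73 ± 0.16 after rescaling (adjusted p = 0.010). The partners Timm8a1 and Timm13 therefore moved in opposite directions in the same limbs: the ratio of Timm8a1 to Timm13 was 1.44, 1.44 and 1.02 in the recovery limbs, above the control range of 0.293 to 0.887, while the atrophy limbs (0.402 to 0.562) and the repeated atrophy limbs (0.305 to 0.788) lay inside it. This pair was picked after its values were seen, and its ratio was not tested. Gfer, the oxidase that recharges Chchd4, was also below all control limbs in recovery (7.49, 8.31 and 7.15 CPM against 9.21 to 26.0 CPM), but it did not pass (log2 fold change -0.68 ± 0.25, adjusted p = 0.094).

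Without recovery limbs 1, 2 and 3, as deposited, 0, 0 and 1 (Timm10) of the 30 genes passed, where 1.48%, 3.48% and 2.29% of all rows did. The 5 log2 fold changes kept their sign and ranged in size from 0.44 to 0.94 over these fits, against 0.54 to 0.75 with all limbs. On the rescaled values 1 lower, 1 lower and 4 higher genes passed, where 3.44%, 6.18% and 5.20% of all rows did. The log2 fold change of Timm13 was -0.74, -0.71 and -0.68 as deposited (adjusted p of 0.0839, 0.0736 and 0.0812, limma) and -0.77, -0.78 and -0.64 after rescaling (adjusted p of 0.0422, 0.0292 and 0.0624). With the replicate block 0 passed, where 0.0641% of all rows did, with 9 of the 30 at an unadjusted p under 0.05, where 2521 of all 14031 rows were. The log2 fold changes in that fit were 0.83 for Timm8a1, 0.68 for Mtx2, 0.51 for Timm10, 0.49 for Timm9 and -0.64 for Timm13 (adjusted p of 0.136 to 0.268, limma), each with the sign it had without the block. The recovery limbs also differed in the markers of other cells, with a summed level of 4 fibroblast markers of 954 to 1796 CPM against 181 to 496 CPM in control (3 of 4 higher, 4 of 4 after rescaling), and of 6 macrophage markers of 61.6 to 123 CPM against 20.3 to 80.8 CPM (3 of 6 higher, 5 of 6 after rescaling). No marker of either list was at 0 in every limb of a group, and their part in the changes of the import genes was not tested.

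After repeated atrophy, 14 of the 30 genes (46.7%) were higher than control and 3 (10.0%) were lower, where 28.1% of all rows were higher and 6.24% were lower. The median log2 fold change of the genes was 0.36, against 0.20 for all rows. After rescaling, 3 genes were higher (Tomm34, Timm10b and Timm17b, where 13.1% of all rows were) and 6 were lower (Samm50, Timm17a, Timm21, Timm23, Timm29 and Timm44, 20.0% of the 30, where 12.1% of all rows were). The outer membrane receptors and Tomm7 were thus higher as deposited and at log2 fold changes of 0.10 to 0.44 after rescaling, with none passing. The genes that were lower after rescaling include 3 of the 4 TIM23 channel genes, as well as the motor gene Timm44. All 6 were also below control in the sham left limbs after rescaling, by less and without passing. 6 of the 30 genes changed sign under at least 1 of the 3 rescalings, among them Pmpcb of the 17 (0.39 as deposited and -0.02 after quantile normalization).

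Tomm34 had the largest rise, at 96.3, 146 and 163 CPM against 39.0 to 60.5 CPM in control, with no overlap. The log2 fold change was 1.43 ± 0.19 (adjusted p = 9.1e-05, limma) as deposited, 1.05 ± 0.13 after rescaling (adjusted p = 5.1e-05) and 1.49 ± 0.25 with the replicate block (adjusted p = 0.0043). Timm10b was at 9.13, 14.4 and 12.7 CPM, above the control range of 3.91 to 7.05 CPM (1.09 ± 0.22, adjusted p = 0.0014, and 0.74 ± 0.17, adjusted p = 0.0036, after rescaling). Both genes passed under every alternative in which they were tested in this comparison, each limb left out included, while Timm10b was too low for the filter at a mean of 10 CPM.

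Timm17b (rn7 chrX:14596330-14603414) was at 16.5, 17.6 and 18.3 CPM, above all control limbs (4.19 to 10.7 CPM, median 8.48). Its log2 fold change was 1.04 ± 0.25 (adjusted p = 0.0041, limma), 0.69 ± 0.22 after rescaling (adjusted p = 0.028) and 1.16 ± 0.28 with the replicate block (adjusted p = 0.015). The paralog Timm17a went the other way, at 118.3, 105.9 and 94.0 CPM, below all control limbs (130.7 to 178.2 CPM, median 159.0). Of the sham limbs, which had no TTX, 1 left and 2 right limbs were below that range too. Timm17a fell by 0.53 ± 0.12 on the log2 scale (adjusted p = 0.0029), and by 0.91 ± 0.17 after rescaling (adjusted p = 0.000927), and with the replicate block the log2 fold change was -0.38 ± 0.14 (adjusted p = 0.061). Even so Timm17a stayed the more abundant of the pair in every limb, 5.14 to 7.19 times Timm17b in the repeated atrophy limbs and 12.6 to 36.0 times in control limbs.

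Timm21, which links the TIM23 channel to the TOM complex and the respiratory chain, was at 37.3, 44.7 and 26.7 CPM against 42.6 to 61.4 CPM, with limb 2 inside the control range (log2 fold change -0.53 ± 0.16, adjusted p = 0.018, and -0.91 ± 0.21, adjusted p = 0.0041, after rescaling). Samm50 was at 128, 150 and 153 CPM, below all control limbs (164 to 213 CPM), with -0.39 ± 0.11 (adjusted p = 0.013) as deposited and -0.77 ± 0.15 (adjusted p = 0.0010) after rescaling. Among the sham limbs, 2 of 3 left and 2 of 3 right limbs were below that control range too. The fall of Samm50 as deposited was lost without repeated atrophy limb 1 (-0.31) and that of Timm21 without limb 3 (-0.34). With the replicate block neither of them passed as deposited (-0.27 ± 0.14, adjusted p = 0.17, and -0.48 ± 0.19, adjusted p = 0.084), whereas both did with block and rescaling together.

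Tomm7 was at 73.9, 107 and 85.3 CPM and Tomm20 at 228, 239 and 179 CPM, each with 1 limb inside the control range (limb 1 for Tomm7 and limb 3 for Tomm20). Their log2 fold changes were 0.82 ± 0.21 (adjusted p = 0.0059, limma) and 0.78 ± 0.19 (adjusted p = 0.0039), and 1.08 ± 0.22 (adjusted p = 0.0075) and 0.87 ± 0.22 (adjusted p = 0.0166) with the replicate block. Without repeated atrophy limb 2 the call of Tomm7 was lost (0.67, adjusted p = 0.0573). The other genes that rose as deposited had log2 fold changes of 0.39 to 0.64. Pmpca and Pmpcb, the subunits of the processing peptidase, were both among them (0.48 ± 0.12 and 0.39 ± 0.15), at 124, 138 and 184 CPM and 116, 109 and 121 CPM, and the call of Pmpca was lost without repeated atrophy limb 3 (0.32) and that of Pmpcb whichever of the 3 limbs was left out (0.36 to 0.44). Those of Chchd4, Mtx2 and Tomm70 were lost without limb 2 (0.45, 0.33 and 0.48), that of Tomm22 without limb 1 or 2 (0.42 for both), and that of Timm10 without any 1 of the 3 (0.47 to 0.53).

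With the replicate block 13 genes passed, all of them higher, where 27.1% of all rows passed in either direction and 21.5% were higher. Of the rises called as deposited, only that of Mtx2 did not pass in this fit. With block and TMM rescaling together 7 passed, 3 higher and 4 lower, where 10.8% of all rows were higher and 10.2% lower. As deposited, 13, 10 and 14 genes passed without repeated atrophy limbs 1, 2 and 3, where 31.9%, 21.6% and 26.9% of all rows did. After rescaling 9, 5 and 5 passed, where 18.1%, 16.1% and 21.7% of all rows did. The satellite cell markers had a summed level of 33.1 to 61.9 CPM in the repeated atrophy limbs against 1.98 to 11.7 CPM in control, with 1 of 2 higher, and 3 of 4 endothelial markers were lower after rescaling (summed level 116 to 199 CPM as deposited, against 150.0 to 228 CPM). In sham left and right limbs the satellite cell sums were 3.42 to 68.7 and 1.45 to 52.2 CPM. The endothelial sums were 183 to 428 and 164 to 518 CPM there. The part of these cells in the changes above was not tested.

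**Figure D2:**
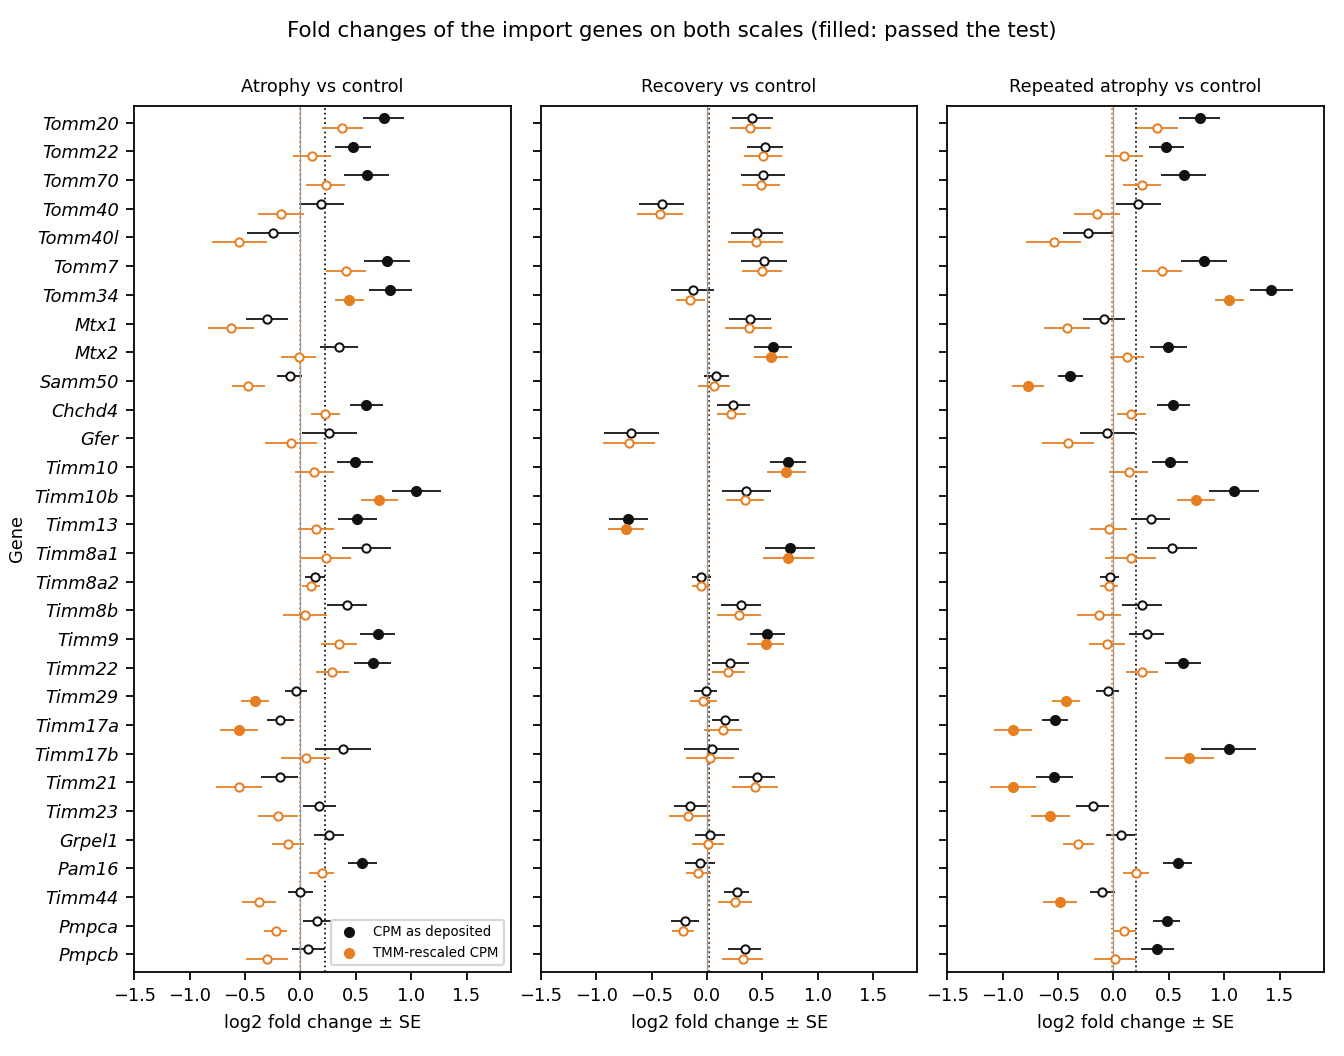
Log2 fold change ± SE of each import gene against the 9 control limbs in 3 panels, on CPM as deposited (black) and after TMM rescaling (orange); filled points passed the test, and dotted lines mark the median of all rows (0.22, 0.02 and 0.20 as deposited). The orange points lie to the left of the black points after atrophy and repeated atrophy and close to them after recovery.

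Between the treated groups, no difference between the initial and the repeated atrophy limbs passed for any of the 30 genes (0 called in limma on both scales, where 0.0356% and 0% of all rows were called). At an unadjusted p under 0.05 were 5 genes as deposited and 3 after rescaling, where 884 and 912 of all 14031 rows were. The largest differences of repeated over initial atrophy were 0.66 ± 0.31 for Timm17b (adjusted p = 0.776) and 0.62 ± 0.24 for Tomm34 (adjusted p = 0.648), and the lowest was -0.40 ± 0.19 for Timm9 (adjusted p = 0.802). Without atrophy limb 1, Tomm34 passed after rescaling (0.76, adjusted p = 0.0474, limma), where 0.471% of all rows did.

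Against the atrophy limbs, the recovery limbs had 2 genes higher (Mtx1 and Timm21) and 4 lower (Gfer, Pam16, Timm13 and Tomm34), 20.0% of the 30 where 17.9% of all rows passed. After rescaling 5 were higher (Mtx1, Timm17a, Timm21, Timm44 and Tomm40l) and 2 lower (Timm13 and Tomm34), 23.3% of the 30 where 10.6% of all rows passed. Timm13 had the largest change as deposited, with a log2 fold change of -1.22 ± 0.21 (adjusted p = 0.0052, limma) as deposited and -0.87 ± 0.20 (adjusted p = 0.015) after rescaling, where Mtx1 (1.00 ± 0.26), Tomm40l (0.99 ± 0.30) and Timm21 (0.99 ± 0.26) changed more. Tomm34 fell by 0.94 ± 0.24 (adjusted p = 0.015), to 39.2, 38.5 and 56.9 CPM, with limb 2 just under the lowest control limb (39.0 CPM). Of the 6 calls as deposited, 1 was left without atrophy limb 1 or 3 or without recovery limb 2 (Timm13) and 2 were left without recovery limb 1, and of the 7 after rescaling 0 or 1 was left without any 1 of these 4 limbs, while 9 passed without atrophy limb 2 or recovery limb 3. All rows passed at 9.55% without atrophy limb 1, 1.74% without atrophy limb 3, 5.31% without recovery limb 1 and 4.05% without recovery limb 2 as deposited, and at 1.13 to 7.73% over these 4 fits after rescaling. In the same fits the 6 log2 fold changes called as deposited kept their sign, with sizes of 0.53 to 1.26 against 0.62 to 1.22 with all limbs.

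Against the recovery limbs, the repeated atrophy limbs had 5 genes higher (Pam16, Pmpca, Timm13, Timm17b and Tomm34) and 3 lower (Samm50, Timm17a and Timm21), 26.7% of the 30 where 27.2% of all rows passed. After rescaling 2 were higher (Timm13 and Tomm34) and 7 lower (Mtx1, Samm50, Timm17a, Timm21, Timm44, Timm9 and Tomm40l), 9 of the 30 where 21.6% of all rows passed. Tomm34 had the largest rise, with a log2 fold change of 1.56 ± 0.24 (adjusted p = 0.00078, limma), and Timm21 had the largest fall (-0.98 ± 0.20, adjusted p = 0.0031, and -1.34 ± 0.26 after rescaling). Timm13 was higher by 1.04 ± 0.21 (adjusted p = 0.0032) and Timm17a lower by 0.69 ± 0.15 on the log2 scale (adjusted p = 0.0037). As deposited, 6, 6 and 10 genes passed without recovery limbs 1, 2 and 3, where 2304, 2103 and 3641 rows of the whole table did, and 9, 7 and 7 without repeated atrophy limbs 1, 2 and 3, where 3503, 2746 and 2813 rows did (3823 with all limbs). The call of Samm50 was lost without recovery limb 1 or 2 or repeated atrophy limb 1 (-0.44 to -0.39), and that of Timm17b without recovery limb 1 or 2 or repeated atrophy limb 2 or 3 (0.866 to 1.005), while the other 6 genes passed in each of these 6 fits. In the fit with the replicate block, in which these contrasts are differences of within-animal differences, 0 genes passed in each of the 3 comparisons between treated groups, with 1, 8 and 2 at an unadjusted p under 0.05 for recovery over atrophy, repeated atrophy over recovery and repeated over initial atrophy. Of all 14031 rows, 2, 12 and 0 passed in that fit, and 1117, 2760 and 790 were at an unadjusted p under 0.05.

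**Figure D3:**
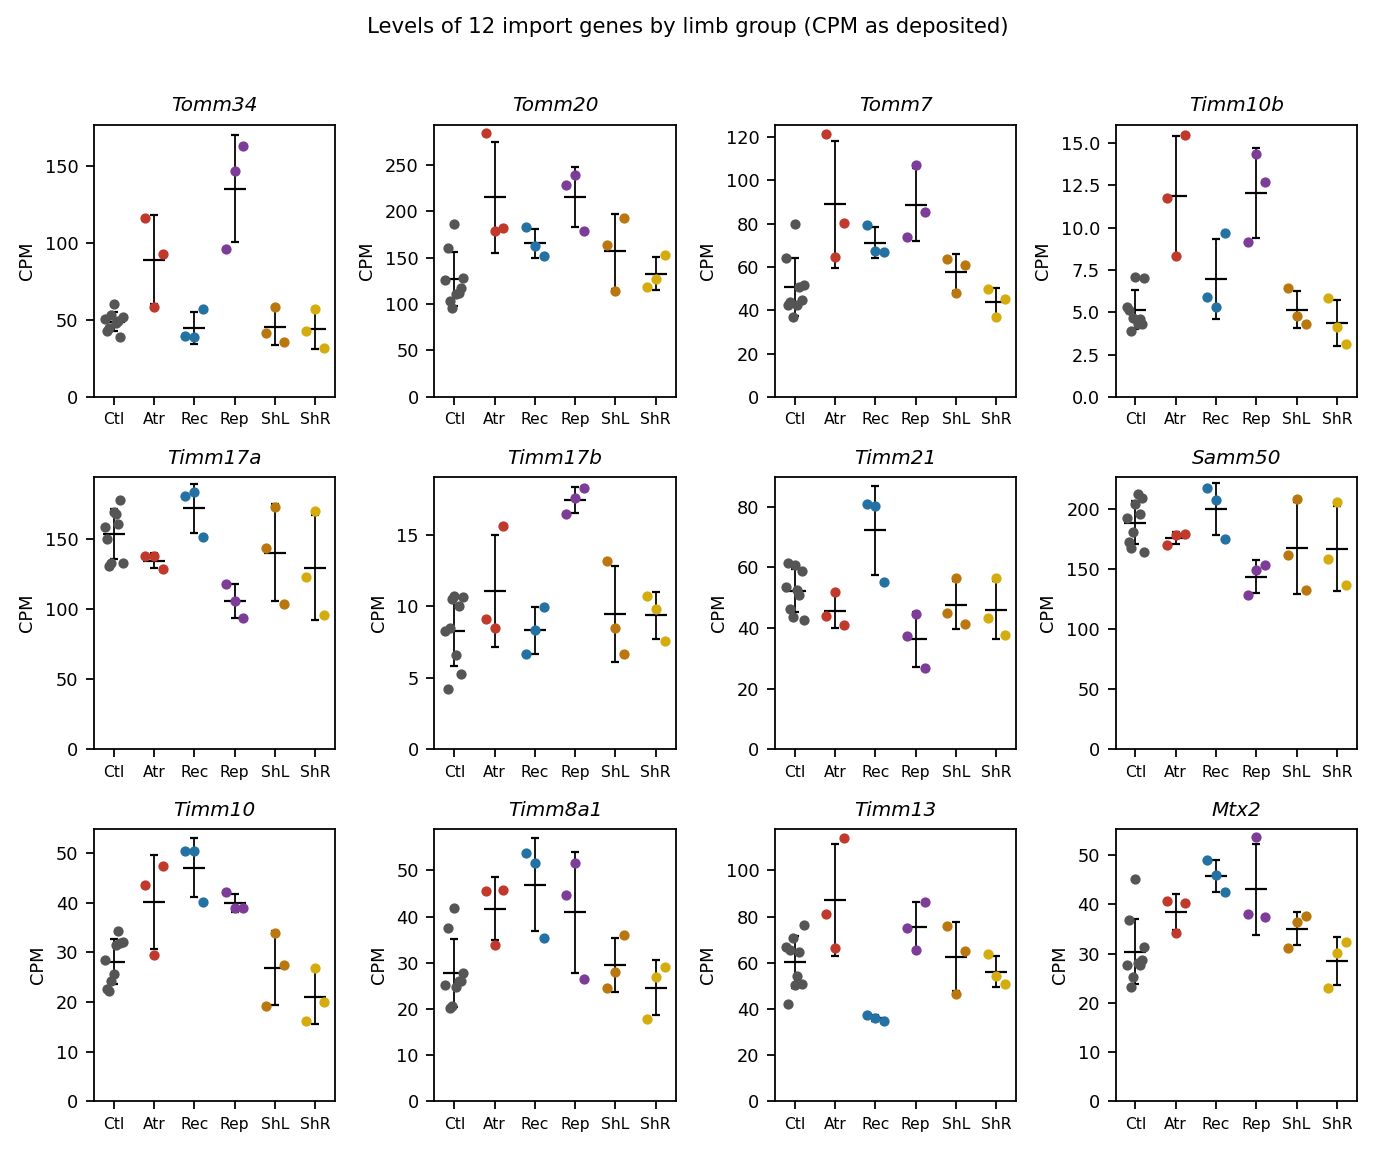
CPM as deposited of 12 import genes in each limb (points), with the mean and SD of each group (bars); Ctl is the 9 control right limbs, Atr atrophy, Rec recovery, Rep repeated atrophy, and ShL and ShR the sham left and right limbs, with 3 limbs each. Tomm34, Timm10b and Timm17b lie above the control limbs and Timm17a and Samm50 below them after repeated atrophy, and Timm13 lies below them after recovery.

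A ratio of 2 genes within a limb does not depend on the scaling of that limb, apart from the 1 CPM added to each value. For 6 pairs of paralogs or subunits the log2 ratio of (CPM + 1) was compared between 3 treated and 9 control limbs with a two-sided exact permutation test (220 splits, smallest p 0.00455), adjusted over 18 tests. The Timm17a to Timm17b ratio was 2.53 ± 0.24 (SD, n = 3) on the log2 scale after repeated atrophy and 4.10 ± 0.51 (SD, n = 9) in control, a difference of -1.57 (exact permutation p = 0.00455, adjusted p = 0.041). No repeated atrophy limb overlapped the control limbs. After atrophy the difference was -0.56 (exact permutation p = 0.145, adjusted p = 0.238), and only limb 3 (a ratio of 8.23) was below the control range, and the recovery limbs lay within it.

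The Timm8a1 to Timm8b ratio was -1.66 ± 0.17 (SD, n = 3) after recovery and -2.10 ± 0.18 (SD, n = 9) in control, a difference of 0.45 (exact permutation p = 0.00455, adjusted p = 0.041), with Timm8a1 at 0.272 to 0.338 times Timm8b against 0.196 to 0.262 times. Both ratios that passed lie at the smallest p of the test, and the adjusted p of each depends on the other lying there too. The other 16 tests did not pass. Nearest were the Timm10 to Timm10b and the Mtx1 to Mtx2 ratios after atrophy (differences of -0.56 and -0.65, exact permutation p = 0.0136 and adjusted p = 0.061 for both). The Pmpca to Pmpcb ratio differed from control by 0.08 after atrophy and by 0.09 after repeated atrophy (exact permutation p of 0.723 and 0.695), less than the SD of the control limbs (0.35), and by -0.54 after recovery (exact permutation p = 0.0273, adjusted p = 0.0701). With 1 treated limb left out the differences were -1.69 to -1.45 for Timm17a to Timm17b and 0.39 to 0.54 for Timm8a1 to Timm8b. There are then 55 splits and a smallest p of 0.0182 before adjustment, so that the adjusted p says nothing about these 2 calls.

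The permutation treats limbs as separate, although 3 of the 9 control limbs come from the animals of the 3 treated limbs. Within animals, the left minus right difference in the log2 ratio of Timm17a to Timm17b was -2.10, -1.27 and -1.24 in the repeated atrophy animals and -0.05, 0.21 and 0.28 in the sham animals. For Timm8a1 to Timm8b it was 0.60, 0.63 and 0.46 in the recovery animals and -0.02, 0.19 and -0.07 in the sham animals. In both cases the 3 treated animals lay beyond the 3 sham animals, and no test was made of these values.

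**Figure D4:**
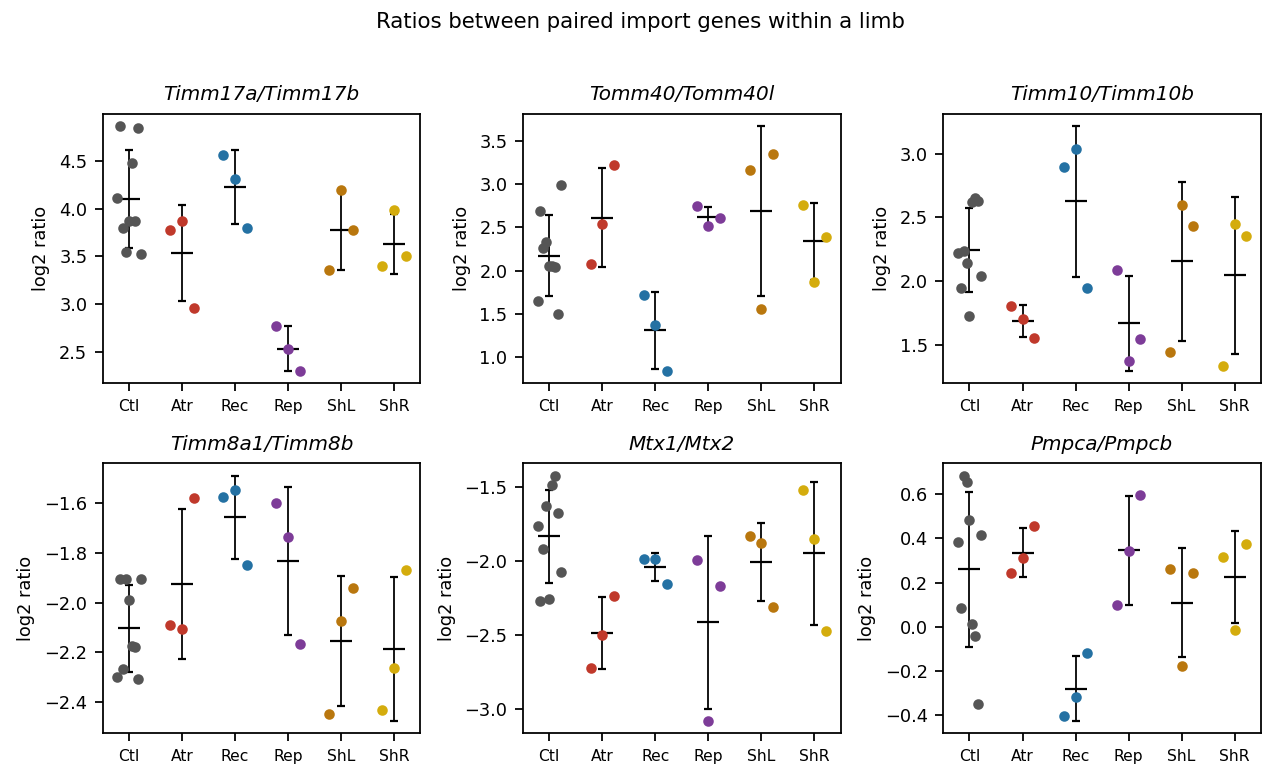
Log2 ratio of (CPM + 1) of 6 gene pairs in each limb (points), with the mean and SD of each group (bars), and groups abbreviated as for the levels; axes do not start at 0. The 3 repeated atrophy limbs lie below all 9 control limbs for Timm17a/Timm17b, and the 3 recovery limbs above them for Timm8a1/Timm8b.

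Within animals, the median left minus right difference of the 30 genes on the log2 scale was 0.38, -0.06 and 0.26 in the 3 atrophy animals, 0.22, 0.18 and 0.13 in the recovery animals and 0.34, 0.67 and 0.34 in the repeated atrophy animals. Over all rows the medians were 0.34, 0 and 0.17 in the atrophy animals, 0.01, 0 and 0.21 in the recovery animals and 0.07, 0.28 and 0.25 in the repeated atrophy animals. In the sham animals, in which no nerve was blocked, the genes had medians of 0.13, 0.03 and 0.18, and all rows of -0.02, 0.09 and -0.03. The median of the genes minus that of all rows was thus 0.15, -0.06 and 0.21 in the sham animals and no larger in the atrophy animals (0.03, -0.06 and 0.09). It was 0.20, 0.18 and -0.09 in the recovery animals and 0.27, 0.38 and 0.09 in the repeated atrophy animals. After rescaling the medians were -0.16, -0.04 and 0.07 in the atrophy animals and 0.18, 0.18 and -0.19 in the recovery animals. Those of the repeated atrophy animals were 0.13, 0.16 and 0.00, and those of the sham animals 0.17, -0.12 and 0.24. Tomm34 was higher in the left limb of each repeated atrophy animal, by 1.16 to 1.70, and Timm17b by 0.75 to 1.75, while Timm17a was lower in each (-0.497 to -0.301). Timm13 was lower in the left limb of each recovery animal (-0.834 to -0.535).

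**Figure D5:**
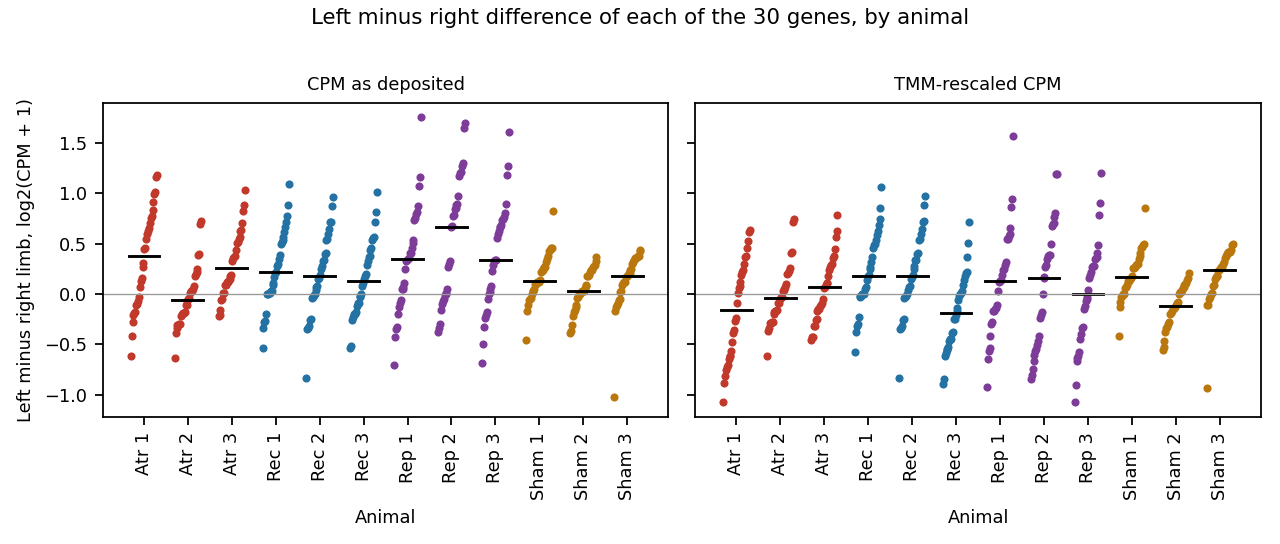
Left minus right limb difference in log2(CPM + 1) of each of the 30 genes (points) in each of 12 animals, with the median of the genes as a black line, on CPM as deposited (left panel) and after TMM rescaling (right panel). The medians of the repeated atrophy animals lie between 0.34 and 0.67 as deposited and between 0.00 and 0.16 after rescaling.

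None of the genes passed in the sham animals. Sham left limbs against the 9 control limbs gave 0 of 30 in limma (0% of all rows), with log2 fold changes of -0.53 to 0.41 as deposited. At an unadjusted p under 0.05 were 0 genes as deposited (1904 of 13822 rows) and 4 after rescaling (1200 rows), and 13 of the 30 genes changed sign under at least 1 rescaling. After rescaling 5 genes were above 0, with a median of -0.157 against 0.01 for all rows. Timm29 was then at -0.38, against -0.43 after repeated atrophy, and Samm50 at -0.42 against -0.77. Timm17a was at -0.38 against -0.91, Timm21 at -0.36 against -0.91, Timm23 at -0.24 against -0.57 and Timm44 at -0.26 against -0.48. Sham left against sham right limbs of the same animals, fitted with the animal as a block, gave 0 of 29 (0% of all rows), with log2 fold changes of -0.40 to 0.38. At an unadjusted p under 0.05 were 3 genes, where 576 of 13483 rows were. Tomm7 was higher in the left limb of each sham animal, by 0.35, 0.37 and 0.43 on the log2 scale, a mean of 0.38 where that of the 3 atrophy animals was 0.41 (0.91, -0.30 and 0.63) and that of the repeated atrophy animals 1.08. In all, 12 of the 30 genes were higher in the left limb of each of the 3 sham animals, where 14.4% of all rows were, and 1 was lower, where 8.91% of all rows were. With Tomm7 these were Timm10, Mtx2, Timm8a1, Mtx1, Pam16, Timm10b, Gfer, Tomm22, Tomm70, Timm17a and Grpel1, in the order of their means (from 0.33 down to 0.11). The same count was 8 in the atrophy animals (25.3% of all rows), 14 in the recovery animals (29.6%) and 17 in the repeated atrophy animals (40.3%). In each of these groups 3 genes were lower in every left limb, where 7.54%, 14.8% and 13.4% of all rows were. Timm8a2 could not be tested there. Tomm34 was at 41.5, 58.6 and 35.8 CPM in sham left limbs, and Timm17b at 13.2, 8.50 and 6.63 CPM. Timm17a was at 144.0, 173.2 and 103.9 CPM in sham left and 123.3, 169.9 and 96.1 CPM in sham right limbs. For Samm50 these were 162.2, 208.5 and 132.3 CPM and 158.3, 205.9 and 136.9 CPM. Some limbs without TTX were thus as low in both genes as repeated atrophy limbs. Timm21 was below its control range in 1 sham left and 1 sham right limb.

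A further list of import and folding genes, drawn up from textbook roles with earlier results of these data known, had 16 of 19 symbols in the table. After atrophy 5 of 16 were higher (Dnlz, Grpel2, Hspe1, Mtch2 and Romo1) and 0 lower, after recovery 4 were higher (Aifm1, Hspd1, Immt and Pitrm1) and 0 lower, and after repeated atrophy 6 were higher (Dnlz, Grpel2, Hspe1, Mtch2, Pitrm1 and Romo1) and 0 lower. These are 31.2%, 25.0% and 37.5% of the list, where 20.3%, 4.40% and 28.1% of all rows were higher. With the replicate block 0, 0 and 5 were higher, where 0%, 0.0428% and 21.5% of all rows were. After rescaling, the counts were 0 higher and 1 lower (Oxa1l), 1 higher (Pitrm1) and 0 lower, and 1 higher (Pitrm1) and 1 lower (Oxa1l). A count of 1 is 6.25% of the list, where 5.15% of all rows were lower after atrophy, 6.14% were higher after recovery, and 13.1% were higher and 12.1% lower after repeated atrophy, so these shares lie near or under those of all rows. Pitrm1, the matrix peptidase that degrades cleaved presequences, rose by a log2 fold change of 0.71 ± 0.11 after repeated atrophy (adjusted p = 0.000191, limma) and by 0.33 ± 0.10 after rescaling (adjusted p = 0.0176). Oxa1l, the insertase for proteins that enter the inner membrane from the matrix, was at -0.67 ± 0.17 after atrophy and -0.56 ± 0.17 after repeated atrophy on the rescaled values (adjusted p = 0.0216 and 0.0188). Hspe1, the cochaperonin of Hspd1, rose by 0.81 ± 0.21 after atrophy and by 0.68 ± 0.21 after repeated atrophy as deposited, and did not pass after rescaling.

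The subunits of respiratory complex I, whose precursors use this machinery, had a median log2 fold change after repeated atrophy of -0.24 over 36 genes as deposited (1 higher, 9 lower) and -0.62 after rescaling (0 higher, 14 lower), against 0.36 and -0.01 for the import genes. The lower genes are 25.0% and 38.9% of that list, where 6.24% and 12.1% of all rows were lower. The higher genes are 2.78% and 0%, where 28.1% and 13.1% of all rows were higher. After atrophy the complex I medians were -0.21 and -0.58, against 0.37 and 0.05 for the import genes, and after recovery 0.40 and 0.38, against 0.25 and 0.24. With the replicate block the complex I medians after atrophy and recovery were close to 0 (-0.005 and 0.048, against 0.20 and 0.18 for the import genes), and that after repeated atrophy was -0.18, against 0.44, with 2 genes higher and 3 lower (5.56% and 8.33%, where 21.5% and 5.66% of all rows were). For 71 mitochondrial ribosomal protein genes, in the order atrophy, recovery and repeated atrophy, the medians were 0.34, 0.28 and 0.22 as deposited and -0.03, 0.27 and -0.15 after rescaling, with 23, 7 and 19 genes higher and 0, 1 and 1 lower as deposited and 0, 7 and 5 higher and 1, 0 and 9 lower after rescaling. The higher counts as deposited are 32.4%, 9.86% and 26.8% of that list, where 20.3%, 4.40% and 28.1% of all rows were higher, and with the replicate block 0, 0 and 18 were higher (18 is 25.4%, where 21.5% of all rows were). After rescaling, the higher counts are 0%, 9.86% and 7.04%, where 4.53%, 6.14% and 13.1% of all rows were higher, and the lower counts 1.41%, 0% and 12.7%, where 5.15%, 5.92% and 12.1% were lower. These are counts and medians of lists, with no test of one list against another, and the 3 comparisons share their control limbs.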

How the data were processed

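RNA of both limbs of 12 rats was measured in 24 libraries. Per the labels and the study's methods, the authors removed ribosomal and transfer RNA reads with Bowtie2 2.2.5 and aligned the rest to rn7 with STAR in Partek, and how reads were assigned to transcripts is not given in the sources used here. The deposited values are CPM, since each column sums to 1000000. Of the low values, 82.6 to 84.6% were whole multiples of 1 read within 0.01 read, so reads were not recovered, no count test was run, and depths are estimates from those steps. Of 27 value columns, 3 matched no sample given here and were not used.

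Of 14271 rows, 28 exact duplicates were dropped, and 14031 of the 14243 kept were above 0 in at least 3 of the 18 limbs of the TTX animals. These limbs were fitted together as log2(CPM + 1) with limma 3.58.1 under R 4.3.3, letting the variance follow the level, and the sham limbs in fits of their own. A call needed a fold change of 1.2 and an adjusted p of 0.05. The test was checked on counts simulated for atrophy against control over 13916 rows, of which 200 were changed. It called 50 of 50 rises of 2-fold and 50 of 50 falls to 0.5, but 32 of 50 rises of 1.5-fold and 24 of 50 falls to 0.667, with 5 false calls. The simulated limbs were independent, with the same spread setting for every row and as many rises as falls. They had no shared animals and no shift of the most abundant rows, so these counts do not give the error rate in the real limbs. Ratios were compared by exact permutation over limbs (Python 3.11.15 with numpy 2.4.6). Limbs were grouped by the labels' condition, limb and time.

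Both limbs of an animal pair treated and control samples per the labels. Deviations from the group means correlated within the 9 animals with a mean r of 0.109 (-0.305 to 0.493, below 0 in 3), and the fit with the animal as a replicate block was run beside the fit without it. The p-values measure only the spread between these limbs.

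The genes, lists and tests were chosen with earlier results of these data known. Named in detail are up to 5 rises and 5 falls with the largest change among the called genes of each treated group against control, and 6 gene pairs. Alternatives were the pseudocount, the filter, 3 rescalings, the trend, the minimum fold, the limbs fitted, 12 right limbs as control, and each treated limb left out.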

Additional observations from a re-analysis of the deposited data

Results flagged for a closer look

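In the 9 control limbs, Gfer was highest in control limb 9 at 26.0 CPM, far above the next limb at 16.3 CPM. Timm8a2 was highest in control limb 5 at 0.265 CPM, where the next limb was at 0.092 CPM and the other 7 were at 0. Dixon's test at its 95% level, which chance passes in about 1 of 20 groups, set these 2 of the 30 genes apart. The cause was not tested.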

How the results depend on the processing

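Counts of import genes called depended mostly on the scaling, the animal term and single limbs, and the cause was not tested. For atrophy against control, 12 genes became 4 with TMM, median of ratios or quantile rescaling, 0 with the replicate block, 0 with the replicate block and TMM together, and 0 to 13 with 1 limb left out. The 4 genes called after TMM became 0 with the block and 0 to 6 with 1 limb left out. For recovery against control, 5 became 9 with quantile normalization, 0 with the block on either scale, and 0 to 1 with 1 limb left out (1 to 4 after TMM). For repeated atrophy against control, 17 became 9 with TMM or median of ratios, 10 with quantile normalization, 13 with the replicate block, 7 with block and TMM together, and 10 to 14 with 1 limb left out (5 to 9 after TMM). For recovery against atrophy, 6 became 0 with the block, 1 with only these groups fitted, and 1 to 8 with 1 limb left out, and the 7 called after TMM became 0 with the block and 0 to 9 with 1 limb left out. For repeated atrophy against recovery, 8 became 0 with the block, as did the 9 called after TMM, which became 5 to 9 with 1 limb left out. For repeated against initial atrophy, 0 became 0 to 1 after TMM with 1 limb left out. The 2 ratios called became 0 to 2 with 1 limb left out, where 55 splits allow no p under 0.0182 before adjustment, so that this says nothing about their stability. Both sham comparisons stayed at 0 under every alternative run. Among genes called as deposited, the sign turned for Tomm70 after atrophy (-0.015 with block and TMM, adjusted p = 0.983 in limma) and for Pmpcb after repeated atrophy (-0.024 with quantile normalization, adjusted p = 0.944 in limma), and after TMM with 1 limb left out for Timm13 after atrophy (-0.019) and for Pmpca, Pmpcb and Tomm22 after repeated atrophy (-0.087 to -0.009). Among genes called after TMM alone it turned for Timm29, after atrophy as deposited without atrophy limb 3 (0.005) and after repeated atrophy with the replicate block as deposited (0.046). Pseudocounts of 0.1 and 10 CPM, the filters on low values, 12 right limbs as control and summing rows per symbol kept every count within 1.5 times. With 18.9 to 30.9 M reads a limb, 1 read was worth at most 0.053 CPM, so that depth limited Timm8a2 most.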
